A study of Mus musculus with 6 samples.

Results

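The 37 genes described here encode the enzymes and transporters that turn glucose into lactate, together with the oxygen-sensing pathway built on hypoxia-inducible factor (HIF). They were chosen by symbol from this known pathway, and all 37 were found among the 23268 genes of the deposited table, Ero1l under its newer symbol Ero1a. Of the 37, 23 belong to glycolysis and its lactate branch and 14 to the HIF pathway. Group 2 innate lymphoid cells (ILC2s), tissue-resident lymphocytes that make type 2 cytokines, were isolated from colons of C57BL/6 mice that were 6 to 8 weeks old. The mice had taken 3% dextran sulfate sodium (DSS), which injures the colonic epithelium and causes colitis, or plain water as the control, for 6 days. RNA sequencing of full-length cDNA gave 3 DSS and 3 control libraries, with 9962415 to 23119390 fragments each. No genetic change is named in the labels, the sorting gate is not given in the sources used here, and the labels do not say whether a library came from 1 mouse or a pool. The p-values therefore measure the spread between these libraries, which may be technical. In bulk libraries such as these, fewer cells of a type and less RNA per cell cannot be told apart.

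Glycolysis splits glucose into pyruvate in the cytosol: an investment phase spends ATP and a pay-off phase returns it. Lactate dehydrogenase then reduces pyruvate to lactate, which monocarboxylate transporters carry out of the cell. HIF is a dimer of an oxygen-labile α subunit (HIF-1α, encoded by Hif1a, or HIF-2α, encoded by Epas1) and a stable partner. In normal oxygen, prolyl hydroxylases of the Egln family mark the α subunit for destruction by the Vhl ubiquitin ligase. When oxygen is low the dimer binds short DNA elements with the core ACGTG or GCGTG and raises glycolytic genes among others. Low oxygen is a known feature of the inflamed colon, and activated lymphocytes are known for high glycolysis.

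The promoters of 4 members are shown because these genes represent the different patterns described below: Hk2, Ldha and Egln3, with lower values in DSS, and Pdk1, with higher values. Each run is the 250 bases before the most upstream RefSeq start (GRCm38.p6), 5′ to 3′ on the gene's strand. Capitals mark ACGTG or GCGTG on either strand, and the palindrome CACGTG counts once on each strand.
Hk2, chr6:82774455-82774704 (- strand): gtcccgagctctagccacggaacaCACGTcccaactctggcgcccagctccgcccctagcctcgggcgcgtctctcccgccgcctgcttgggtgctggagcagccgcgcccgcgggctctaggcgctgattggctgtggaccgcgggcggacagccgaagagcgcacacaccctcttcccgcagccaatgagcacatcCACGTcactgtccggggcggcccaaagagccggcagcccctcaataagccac
Ldha, chr7:46845554-46845803 (+ strand): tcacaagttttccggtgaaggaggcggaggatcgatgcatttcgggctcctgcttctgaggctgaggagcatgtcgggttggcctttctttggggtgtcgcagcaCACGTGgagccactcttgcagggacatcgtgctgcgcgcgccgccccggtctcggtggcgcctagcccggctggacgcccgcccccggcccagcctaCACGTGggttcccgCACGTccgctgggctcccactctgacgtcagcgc
Egln3, chr12:54203875-54204124 (- strand): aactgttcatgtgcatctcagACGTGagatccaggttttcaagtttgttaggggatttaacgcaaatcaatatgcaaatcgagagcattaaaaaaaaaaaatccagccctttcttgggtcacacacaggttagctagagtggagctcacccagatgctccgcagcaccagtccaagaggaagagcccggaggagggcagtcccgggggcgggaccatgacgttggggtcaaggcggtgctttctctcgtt
Pdk1, chr2:71872974-71873223 (+ strand): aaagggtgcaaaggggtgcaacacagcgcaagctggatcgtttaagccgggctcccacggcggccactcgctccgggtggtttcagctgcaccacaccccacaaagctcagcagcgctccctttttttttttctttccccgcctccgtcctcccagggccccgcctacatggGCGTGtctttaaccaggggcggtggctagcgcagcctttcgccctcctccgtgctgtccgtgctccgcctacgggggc
Hk2 held 2 matches to ACGTG, Ldha 5 and Egln3 1, while Pdk1 held 1 match to GCGTG. Of the 33 members with a RefSeq window, 16 (48.5%) had ACGTG in these 250 bases, against 16.5% of all 27025 genes with a window. Either core was present in 25 members (75.8%), against 38.6% of all genes. Among members whose DSS libraries all lay below the controls, 8 of 13 windows held ACGTG, and among those whose groups overlapped, 8 of 19. For either core the counts were 10 of 13 (76.9%) and 14 of 19 (73.7%), so these shares were close. A match describes the letters only, and base composition, which differs between promoters, was not matched. The members were chosen partly as known HIF targets, so their higher share against all genes is no independent evidence. The 50 bases after the start were found in a GENCODE transcript for 25 of the 33 windows.

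Summed over the 23 genes, glycolysis took a smaller part of the ILC2 transcriptome in every DSS library than in any control. The summed FPKM (fragments per kilobase of transcript, scaled to library size) of the 23 genes was 2008, 2274 and 2113 in DSS libraries 1, 2 and 3, against 2713, 2704 and 2605 in the controls. As a share of all FPKM in a library, which no constant scaling of a library changes, this was 0.365%, 0.491% and 0.497% in DSS, against 0.592%, 0.589% and 0.579% in the controls. The groups did not overlap, and DSS replicate 1 was the lowest. For the 14 HIF pathway genes the share was 0.0463%, 0.0669% and 0.0766% in DSS, against 0.0859%, 0.0849% and 0.0861% in the controls, again with DSS replicate 1 lowest. These sums are carried by a few abundant transcripts and do not describe every gene. On the log2 scale used below, 15 of the 23 glycolysis genes were lower in DSS and 8 were higher. How often the sums of other genes separate the groups was not tested. Averaged over the 6 libraries, Ldha stood at 761 FPKM, Aldoa at 610, Pkm at 302 and Eno1 at 256. Of these, Aldoa overlapped between the groups. The most abundant HIF pathway genes were Egln3 at 75.2 FPKM and Epas1 at 64.6. Aldoc, Pfkfb4, Slc16a3, Bnip3 and Pfkm stayed below 6 FPKM on the same scale.

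Gene by gene, the difference of log2(FPKM + 1) between DSS and control libraries (positive where DSS was higher) was fitted with limma across 12187 genes with a mean of at least 1 FPKM. All 37 members met that minimum. None of the 37 passed at a limma adjusted p under 0.05, where 0.222% of all genes tested did. With the replicate number as a block 0 members passed as well, where 0.181% of all genes did. At an unadjusted p under 0.05 the fit held 10 members lower in DSS and 0 higher, against backgrounds of 5.42% and 3.57% of all genes. In the same terms limma voom on the recovered fragments also gave 0 members at an adjusted p under 0.05 (0.148% of all genes), with 11 lower and 1 higher unadjusted, against 6.2% and 3.5%. All 3 DSS libraries lay below all 3 control libraries for 14 members, where 9.6% of all genes did so, and above them for 2, where 6.35% did. The value was lower in DSS for 24 of the 37, and for 46.9% of all genes tested. The median log2 change was −0.19 over the 23 glycolysis genes and −0.16 over the 14 HIF pathway genes, against 0.03 over all genes tested.

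Which members differed beyond the spread depended on 1 library. Without DSS replicate 1, 7 members passed at a limma adjusted p under 0.05: Hk2, Eno1, Pkm, Epas1, Egln3 and Mxi1 lower in DSS and Ddit4 higher. In that fit 2.32% of all genes passed lower and 1.15% passed higher, 435 genes in all. Without both replicates 1, Hk2, Epas1, Egln3 and Mxi1 passed, all lower, where 1.41% of all genes passed lower. Without DSS replicate 1 the glycolysis median was 0.05 and the HIF median −0.16, against 0.13 over all genes. The sign of the glycolysis median thus rests on that library. The median of all genes moved up as well, from 0.03, and the glycolysis median was the lower of the 2 in both fits. DSS replicate 1 was the lowest of the 6 libraries for 22 of the 37 members, and for 38.8% of all genes tested. At an equal total it was the lowest for 29 (49.9% of all genes). With median-of-ratios it was the lowest for 14 (28%), and DSS replicate 3 for another 14 (22.6%).

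The counts of separate members moved with the scaling and the libraries, in alternatives chosen after seeing the data. With median-of-ratios scaling 8 members (Hk2, Pgk1, Pkm, Ldha, Hif1a, Epas1, Egln3 and Mxi1) lay below all controls and 2 above, against 9% and 6.43% of all genes. Scaled to an equal total the counts were 12 and 1, against 9.93% and 5.07%. They were 14 and 7 without DSS replicate 1 (14.6% and 16.9% of all genes). They were 14 and 9 without both replicates 1 (18.1% and 20.7%) and 18 and 4 without both replicates 3 (23.1% and 21.3%). Leaving out a library can only add genes to those already below all controls, so the 14 had to stay. No further member joined them without DSS replicate 1 or without both replicates 1.

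**Figure D1:**
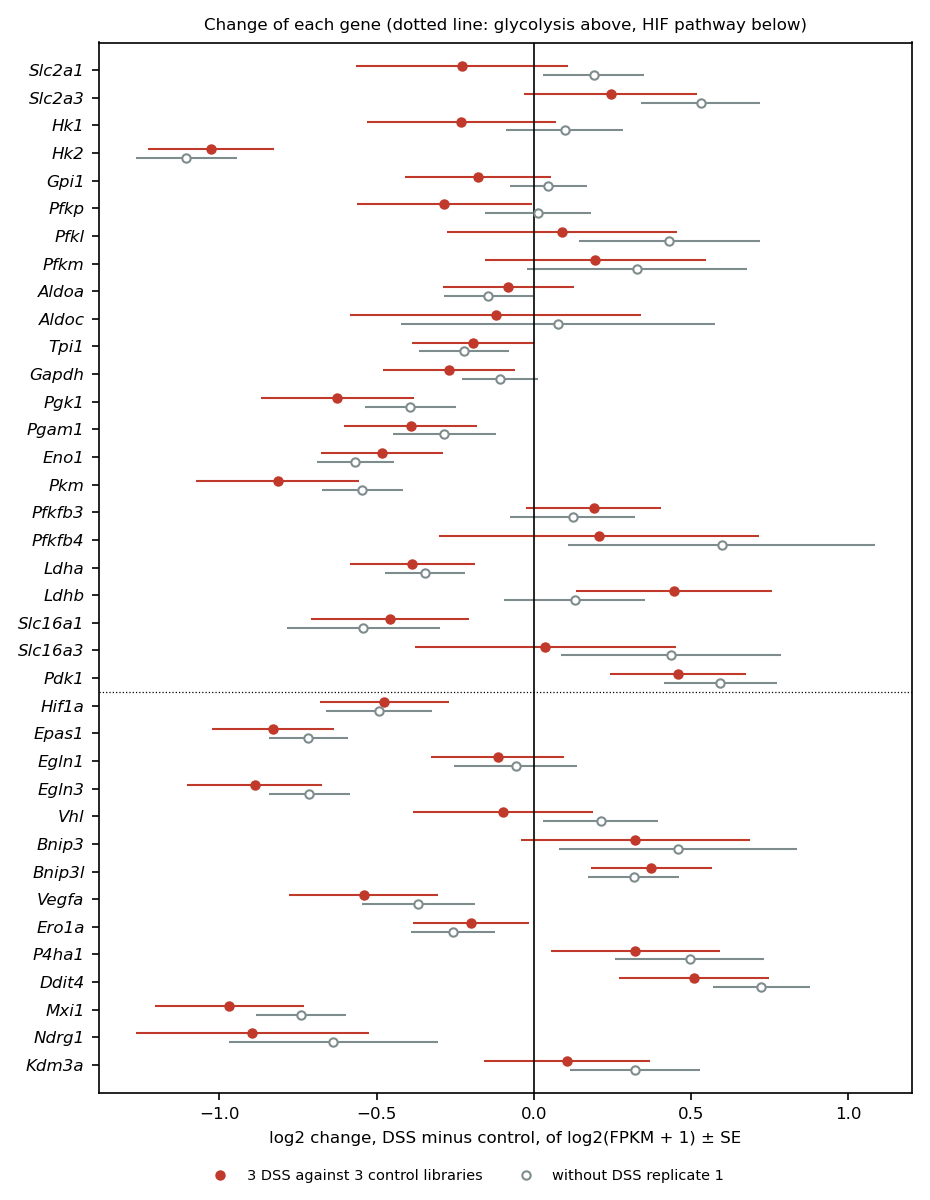
Log2 change of each gene between DSS and control libraries (positive is higher in DSS) with its standard error, from log2(FPKM + 1): filled points use all 6 libraries and open points leave out DSS replicate 1. Hk2, Epas1, Egln3 and Mxi1 have the lowest values in the open points, −1.10, −0.72, −0.71 and −0.74, while Slc2a1, Hk1, Gpi1, Pfkp, Aldoc and Vhl cross 0.

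Glucose entry showed no shared direction. Slc2a1 encodes GLUT1, the main glucose transporter of activated lymphocytes. It measured 11.5, 30.0 and 27.9 FPKM in DSS libraries 1, 2 and 3, against 28.2, 26.8 and 21.2 FPKM in controls. DSS replicate 1 was far below the other 5 libraries, and DSS replicates 2 and 3 overlapped the controls. Slc2a3, which encodes the high-affinity transporter GLUT3, measured 4.67, 9.39 and 9.15 FPKM in DSS, against 6.02, 6.24 and 6.07 FPKM in controls, with the same library low. Within each library, the log2 ratio of Slc2a1 to Slc2a3 was 1.41 ± 0.23 in DSS and 1.88 ± 0.21 in controls (SD, n = 3 each). The groups did not overlap, though DSS replicate 2 (1.58) and control replicate 3 (1.65) were close. The exact two-sided permutation p was 0.1, the smallest that 3 against 3 allows (0.2 adjusted over the 4 ratios tested). With 5 in place of 1 added to each FPKM, the exact permutation p was 0.2. The difference of −0.47 ran from −0.59 to −0.34 with 1 library left out. It was −0.25 without both replicates 1 and −0.64 without both replicates 3.

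Hexokinase commits glucose to the cell, and its inducible isozyme Hk2 had the lowest unadjusted p of the 37. Hk2 lies on chromosome 6 (mm10, 82725025 to 82774454). It measured 10.9, 9.41 and 8.91 FPKM in DSS libraries 1, 2 and 3, against 22.7, 20.2 and 19.7 FPKM in controls. The 3 DSS libraries were close together, and the highest of them was far below the lowest control. The mean was 9.75 ± 1.06 FPKM in DSS and 20.9 ± 1.57 FPKM in controls (SD, n = 3 each), 2.14-fold lower. The log2 change was −1.03 ± 0.20 (SE; limma adjusted p = 0.105, and 0.0042 to 0.612 over the alternatives). Hk1, the isozyme of most tissues, measured 5.96, 10.7 and 15.2 FPKM in DSS, against 11.5, 12.0 and 12.1 FPKM in controls. Hk2 thus held 64.7%, 46.8% and 36.9% of the summed hexokinase FPKM in DSS, against 66.3%, 62.8% and 62.0% in controls. In DSS replicate 1 both isozymes were low and the share stayed in reach of the controls, and in DSS replicates 2 and 3 the share was lower. The log2 ratio of Hk2 to Hk1 was −0.03 ± 0.75 in DSS and 0.76 ± 0.14 in controls (SD, n = 3 each; exact two-sided permutation p = 0.3, adjusted 0.4). The difference of −0.80 was −1.20 without DSS replicate 1 and −0.46 without DSS replicate 3.

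The other enzymes of the investment phase overlapped between the groups. Gpi1, which encodes glucose-6-phosphate isomerase, measured 72.9, 120.7 and 113.0 FPKM in DSS and 118, 112 and 109 FPKM in controls. Phosphofructokinase is the main control point of the pathway. Its summed FPKM over Pfkp, Pfkl and Pfkm was 18.5, 30.1 and 41.3 in DSS and 29.0, 27.1 and 37.5 in controls, with Pfkp the largest part in every library. Aldoa, the abundant aldolase, measured 645, 636 and 503 FPKM in DSS and 619, 653 and 605 FPKM in controls, and Aldoc held under 1% of the aldolase FPKM. Tpi1, which interconverts the triose phosphates, measured 58.2, 59.5 and 50.1 FPKM in DSS and 68.4, 67.1 and 56.9 FPKM in controls. Pfkfb3 and Pfkfb4 encode the enzymes that make the phosphofructokinase activator. Pfkfb3 measured 9.53, 8.76 and 7.59 FPKM in DSS and 6.49, 8.19 and 7.63 FPKM in controls. Pfkfb4 measured 0.688, 1.45 and 4.88 FPKM in DSS and 1.03, 1.26 and 2.44 FPKM in controls, from as few as 36 fragments a library. The groups overlapped for each of these genes, and no log2 change was larger than 0.3 in size.

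In the pay-off phase, all 5 enzymes (Gapdh, Pgk1, Pgam1, Eno1 and Pkm) had every DSS library below every control, with a median log2 change of −0.48, where 9.6% of all genes lay below. This held for 4 of the 5 at an equal total and for 2, Pgk1 and Pkm, with median-of-ratios scaling. In the investment phase this held for Hk2 alone of 9. The difference between the phases was not tested. Pkm encodes pyruvate kinase, the last step, and lies on chromosome 9 (mm10, 59656368 to 59679375). It measured 148, 273 and 249 FPKM in DSS, against 409, 383 and 353 FPKM in controls, with DSS replicate 1 lowest. The log2 change was −0.81 ± 0.26 (SE; limma adjusted p = 0.322, and 0.0431 to 0.9999 over the alternatives). Eno1, an enolase gene, measured 240, 207 and 194 FPKM in DSS, against 281, 318 and 294 FPKM in controls, and here DSS replicate 1 was the nearest to the controls. Its log2 change was −0.48 ± 0.20 (SE; limma adjusted p = 0.477, and 0.0302 to 0.9999 over the alternatives). Pgk1, which encodes the first ATP-yielding enzyme, measured 18.6, 28.7 and 33.2 FPKM in DSS, against 36.7, 42.7 and 43.5 FPKM in controls. Gapdh measured 88.0, 124.9 and 122 FPKM in DSS and 127, 142 and 131 FPKM in controls, a log2 change of −0.27 ± 0.21 (SE). Pgam1, a phosphoglycerate mutase gene, measured 14.6, 20.0 and 17.1 FPKM in DSS and 26.1, 21.5 and 20.9 FPKM in controls, with groups close to touching. Several of these genes have near-identical copies. Eno1b shares 99.4% of the aligned coding bases of Eno1 and was listed at 6.69 to 13.0 FPKM. At least 300 coding bases of Gapdh are matched at 95% or more by 78 annotated copies, mostly processed pseudogenes. Of these, 2 are in the deposited table. Pgk1 has 4 such copies, and Pgam1 and Pkm have 1 each, with 0 in the table. Outside the pay-off phase, Bnip3 has 4 and Ldha 3, and Gpi1, Tpi1, Ldhb and Bnip3l have 1 each, again with 0 in the table. Reads of all these genes could be split between copies.

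In the lactate branch the means of the 2 dehydrogenase subunits moved in opposite directions, though the Ldhb groups overlapped. Ldha encodes the subunit known for favouring lactate and was the most abundant of the 37. It measured 624, 672 and 684 FPKM in DSS, against 895, 837 and 856 FPKM in controls, with little spread in either group. The DSS mean was 1.31-fold below the control mean, and the log2 change was −0.39 ± 0.20 (SE; limma adjusted p = 0.639). Ldhb, the subunit of oxidative tissues, measured 20.7, 12.4 and 8.35 FPKM in DSS, against 10.7, 7.44 and 9.81 FPKM in controls, highest in DSS replicate 1. Its log2 change was 0.45 ± 0.31 (SE; limma adjusted p = 0.756), and 0.13 without DSS replicate 1. Ldhb made up 3.2%, 1.81% and 1.21% of the lactate dehydrogenase FPKM in DSS, against 1.18%, 0.881% and 1.13% in controls. All DSS libraries lay above all controls in that share, DSS replicate 3 only just. The log2 ratio of Ldha to Ldhb was 5.57 ± 0.68 in DSS and 6.40 ± 0.21 in controls (SD, n = 3 each; exact two-sided permutation p = 0.1, adjusted 0.2). The difference of −0.83 was −0.48 without DSS replicate 1 and −1.15 without DSS replicate 3.

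Slc16a1, which encodes the lactate and pyruvate transporter MCT1, measured 5.59, 3.61 and 5.57 FPKM in DSS, against 5.73, 7.73 and 7.77 FPKM in controls. DSS replicates 1 and 3 lay just under the lowest control. Slc16a3, which encodes the lactate exporter MCT4, measured 0.8, 2.58 and 3.79 FPKM in DSS and 1.95, 2.48 and 1.78 FPKM in controls, and its log2 change of 0.04 was −0.13 with voom. The log2 ratio of Slc16a3 to Slc16a1 was −0.90 ± 0.85 in DSS and −1.39 ± 0.24 in controls (SD, n = 3 each; exact two-sided permutation p = 0.4, adjusted 0.4). The difference of 0.49 was 0.98 without DSS replicate 1, 0.23 without DSS replicate 2 and 0.27 without DSS replicate 3. Pdk1 encodes a kinase that inhibits the mitochondrial enzyme pyruvate dehydrogenase and is a textbook HIF target. It went the other way from Ldha, with 8.99, 12.3 and 12.0 FPKM in DSS, against 7.98, 8.15 and 7.11 FPKM in controls. All DSS libraries lay above all controls, though not at an equal total, and the log2 change was 0.46 ± 0.22 (SE; limma adjusted p = 0.587).

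**Figure D2:**
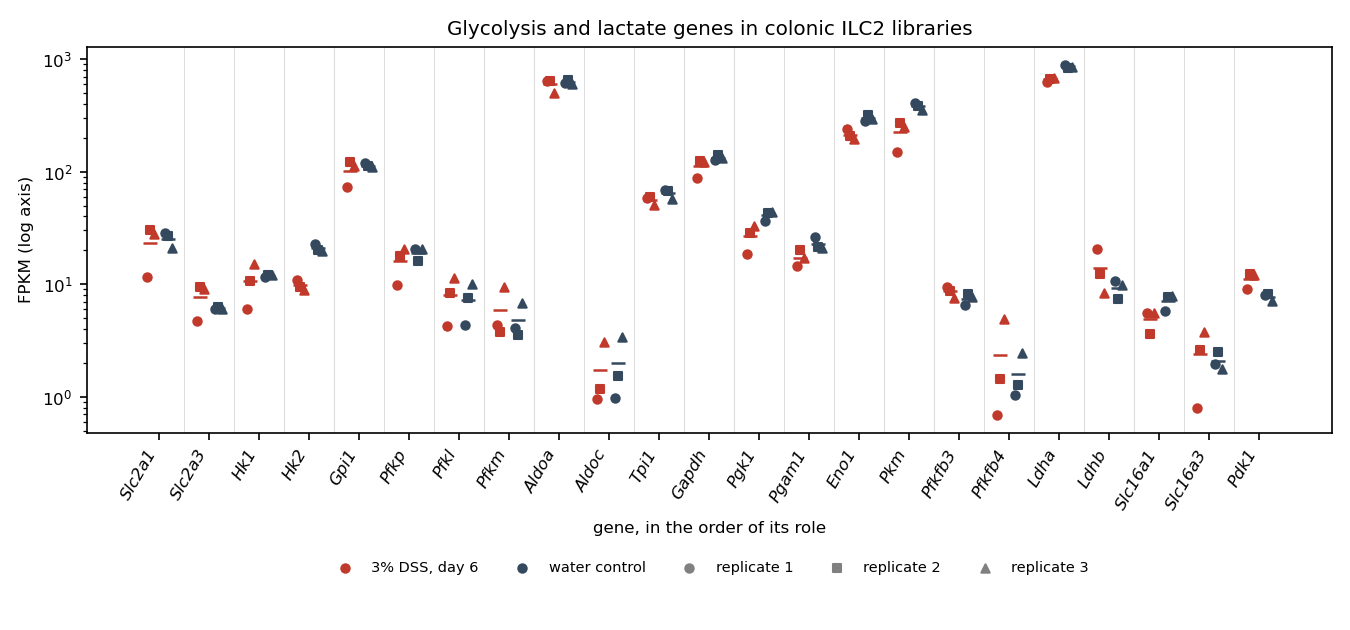
FPKM (log axis) of the 23 glycolysis and lactate genes in each DSS library (red, left) and control library (dark, right), with group means as short lines and replicate numbers as symbols. Hk2, Pkm, Eno1 and Ldha have separate groups, and DSS replicate 1 (circle) is the low point of Slc2a1, Gpi1 and Pkm.

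**Figure D3:**
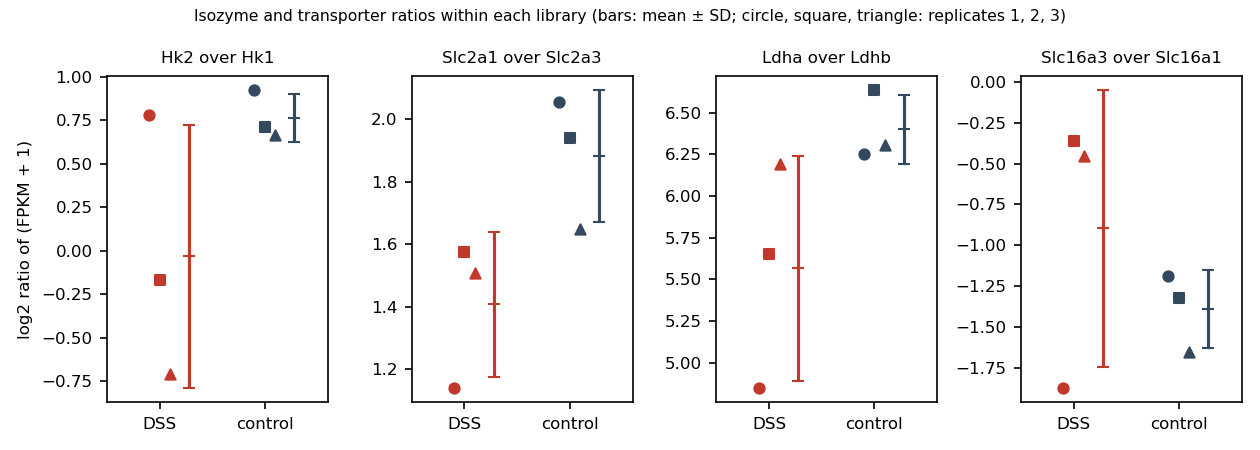
Log2 ratio of (FPKM + 1) between 2 isozymes or transporters within each library, DSS left and control right, with mean ± SD beside the points. The groups are separate for Slc2a1 over Slc2a3 and for Ldha over Ldhb, and overlap for the other ratios.

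Both HIF α subunit genes had lower values in DSS. Epas1 lies on chromosome 17 (mm10, 86753700 to 86833410) and was the more abundant of the pair in every library on the length-scaled FPKM. Epas1 measured 39.3, 49.9 and 49.99 FPKM in DSS, against 79.0, 89.1 and 80.5 FPKM in controls, with a wide gap between the groups. The DSS mean was 1.79-fold below the control mean. Its log2 change was −0.83 ± 0.20 (SE), with a limma adjusted p of 0.157, and 0.0106 to 0.781 over the alternatives. Hif1a measured 19.3, 18.8 and 18.6 FPKM in DSS, against 31.9, 22.7 and 26.0 FPKM in controls. The DSS libraries were nearly equal, and the controls were spread above them (log2 change −0.48 ± 0.20 SE, limma adjusted p = 0.525).

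Of the oxygen-sensing genes, Egln3 set the groups apart and the others did not. Egln3 encodes prolyl hydroxylase PHD3, whose own transcript is known to be raised by HIF, and lies on chromosome 12 (mm10, 54178981 to 54203860). It measured 40.8, 55.1 and 63.0 FPKM in DSS, against 91.8, 98.1 and 102 FPKM in controls. DSS replicate 1 was lowest, and the highest DSS library was well under the lowest control. The mean was 53.0 ± 11.3 FPKM in DSS and 97.4 ± 5.24 FPKM in controls (SD, n = 3 each), and the log2 change was −0.89 ± 0.22 (SE; limma adjusted p = 0.170, and 0.0119 to 0.740 over the alternatives). Egln1, which encodes the main hydroxylase PHD2, measured 6.2, 6.74 and 7.52 FPKM in DSS and 6.80, 7.44 and 8.16 FPKM in controls. Vhl measured 4.61, 9.49 and 9.93 FPKM in DSS and 8.38, 7.51 and 8.88 FPKM in controls, low in DSS replicate 1 alone. Both overlapped between the groups.

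The 9 other HIF targets were split, with 4 lower and 5 higher in DSS and a median log2 change of 0.11. That median was 0.32 without DSS replicate 1, 0.30 without both replicates 1 and −0.07 without both replicates 3. On the lower side, Mxi1, which encodes an antagonist of Myc, lies on chromosome 19 (mm10, 53310518 to 53375810). Mxi1 measured 10.5, 18.02 and 17.1 FPKM in DSS, against 29.0, 29.4 and 31.4 FPKM in controls, with the groups far apart. The DSS mean was 1.97-fold below the control mean. Its log2 change was −0.97 ± 0.24 (SE), with a limma adjusted p of 0.177, and 0.0163 to 0.705 over the alternatives. Vegfa, the angiogenic growth factor gene, measured 9.43, 14.9 and 13.2 FPKM in DSS, against 20.1, 20.3 and 15.1 FPKM in controls. Its groups nearly met (log2 change −0.54 ± 0.24 SE, limma adjusted p = 0.544). Ero1a, an oxidase gene of disulfide formation in the endoplasmic reticulum, measured 32.7, 28.7 and 29.2 FPKM in DSS and 34.3, 34.4 and 35.6 FPKM in controls, a small gap. Ndrg1, a stress-induced gene, measured 2.27, 4.44 and 4.77 FPKM in DSS and 12.97, 7.62 and 4.49 FPKM in controls. The control spread was wide, and control replicate 3 lay within the DSS range.

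On the higher side were genes known for mitophagy, collagen hydroxylation and mTOR inhibition. Bnip3l, which encodes the mitophagy receptor NIX, measured 48.4, 41.5 and 44.5 FPKM in DSS, against 38.7, 31.5 and 32.9 FPKM in controls. Its groups did not overlap, except with median-of-ratios scaling (log2 change 0.37 ± 0.19 SE, limma adjusted p = 0.639). Its relative Bnip3 measured 2.96, 2.34 and 7.22 FPKM in DSS and 2.73, 2.41 and 3.37 FPKM in controls, with only DSS replicate 3 high. Ddit4, which encodes the mTOR inhibitor REDD1 and also responds to glucocorticoids, measured 24.7, 42.1 and 36.1 FPKM in DSS and 20.96, 26.4 and 22.5 FPKM in controls. DSS replicate 1 lay inside the control range, and the log2 change was 0.51 ± 0.24 (SE; limma adjusted p = 0.582, and 0.0283 to 0.9999 over the alternatives). P4ha1, a collagen prolyl hydroxylase gene, measured 6.00, 8.19 and 9.97 FPKM in DSS and 8.16, 4.71 and 5.90 FPKM in controls. Kdm3a, a histone demethylase gene, measured 7.22, 9.67 and 14.6 FPKM in DSS and 8.95, 8.68 and 10.4 FPKM in controls. Both overlapped.

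**Figure D4:**
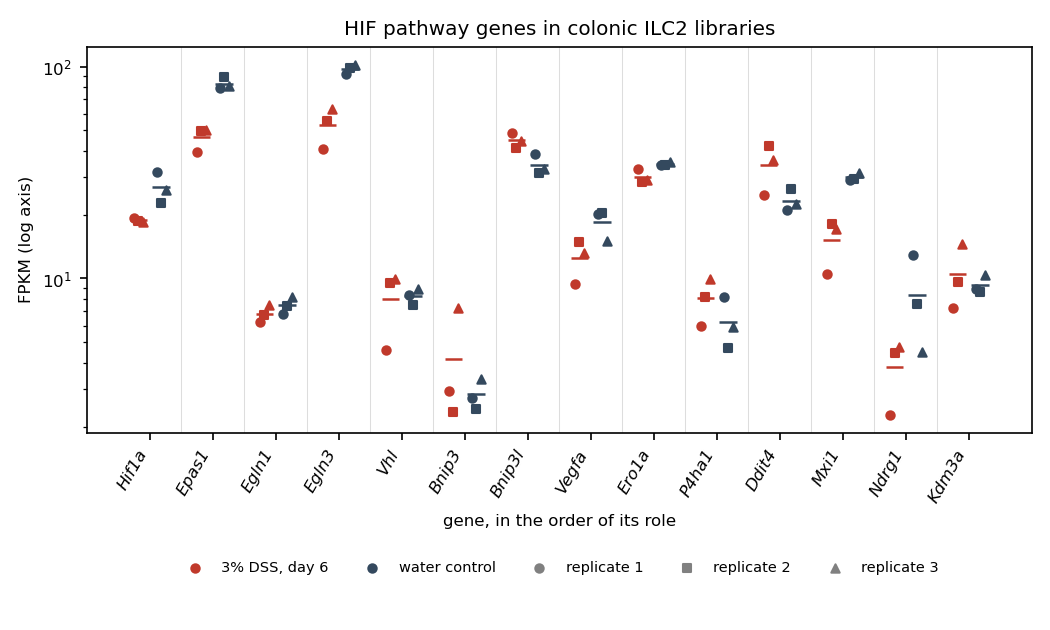
FPKM (log axis) of the 14 HIF pathway genes in each DSS library (red, left) and control library (dark, right), with group means as short lines. Hif1a, Epas1, Egln3, Vegfa, Ero1a and Mxi1 lie below all controls in every DSS library and Bnip3l lies above. The groups of the other genes overlap.

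Other genes of the same pathways were read from wider lists. Of 29 further HIF targets 26 were tested, 14 lower and 12 higher in DSS with 0 passing the limma adjusted p, and 7 lay below all controls, where 9.6% of all genes did. With median-of-ratios scaling 4 did, where 9% of all genes did. The most abundant was Hilpda, which encodes a HIF-induced lipid droplet protein. Its rank among all genes by FPKM was 3 in each DSS library and 1 in each control library. Hilpda measured 11579, 7027 and 6221 FPKM in DSS, against 14892, 15449 and 14385 FPKM in controls (log2 change −0.90 ± 0.31 SE, limma adjusted p = 0.364). Bhlhe40, a HIF-responsive transcription factor gene, measured 565, 1094 and 1124 FPKM in DSS, against 1798, 1793 and 1568 FPKM in controls. Rora, a HIF target that is also an ILC2 lineage factor, measured 61.3, 81.1 and 92.7 FPKM in DSS, against 172, 149.5 and 139.7 FPKM in controls. Of 13 further HIF regulators 12 were tested, 4 lower and 8 higher, and 0 were separate between the groups. Rheb, an activator of mTOR, measured 23.6, 15.2 and 11.1 FPKM in DSS and 30.7, 19.8 and 20.1 FPKM in controls. Hif3a measured 0.833, 1.32 and 2.46 FPKM in DSS and 0.187, 0.15 and 1.16 FPKM in controls. Egln2, a prolyl hydroxylase gene held by both HIF lists, measured 7.69, 25.9 and 20.5 FPKM in DSS and 10.98, 10.3 and 15.1 FPKM in controls, lowest in DSS replicate 1. Without DSS replicate 1, Hilpda, Rora and Bhlhe40 passed lower in DSS (limma adjusted p = 0.0066, 0.0081 and 0.0362) and Egln2 passed higher (0.0326), in a fit where 2.32% of all genes passed lower and 1.15% higher.

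Of 13 genes of pyruvate entry into mitochondria 12 were tested, and 11 had a lower value in DSS, as did 46.9% of all genes, with 0 passing. Pdhb, a subunit of pyruvate dehydrogenase, measured 48.1, 48.3 and 45.1 FPKM in DSS, against 61.4, 71.2 and 64.6 FPKM in controls, with little spread in DSS (limma adjusted p = 0.457). Pdk3, a kinase gene of the same complex, measured 5.64, 5.88 and 10.8 FPKM in DSS and 11.4, 11.3 and 10.1 FPKM in controls, and Pdpr, a phosphatase regulator gene, had 1.33 to 3.53 FPKM in DSS and 0.632 to 1.61 FPKM in controls. Both overlapped. Of 7 pentose phosphate genes 6 were tested, 5 lower and 0 passing. Tkt, which encodes transketolase, measured 14.1, 36.95 and 34.3 FPKM in DSS, against 47.4, 46.6 and 46.4 FPKM in controls, with DSS replicate 1 far below the rest. Taldo1, which encodes transaldolase, measured 172, 154 and 116 FPKM in DSS, against 201, 198 and 184 FPKM in controls, and Rpe overlapped at 4.33 to 5.52 FPKM in DSS and 4.99 to 9.42 FPKM in controls. Of 23 other isozymes and transporters 12 were tested, 4 lower and 8 higher with 0 passing. Slc2a6, a hexose transporter gene of leukocytes, measured 2.26, 3.63 and 3.62 FPKM in DSS, against 7.57, 5.91 and 6.44 FPKM in controls (limma adjusted p = 0.2499). Pgam2, the muscle mutase, measured 4.05, 3.72 and 6.95 FPKM in DSS, against 2.39, 1.48 and 2.88 FPKM in controls (limma adjusted p = 0.425). Slc2a8 overlapped, at 12.1 to 18.7 FPKM in DSS and 9.09 to 12.4 FPKM in controls. At an unadjusted limma p under 0.05 the 5 wider lists held 1, 1, 1, 0 and 5 genes lower for isozymes, pyruvate entry, pentose phosphate, HIF regulators and HIF targets, against 5.42% of all genes. They held 1 gene higher, Pgam2, against 3.57%.

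All 13 ILC2 markers were detected, with a summed 4931 to 7793 FPKM in DSS and 6718 to 7651 in controls. Only 2 of the 13 had a higher mean in DSS, and 6 of the 13 lay below all controls in every DSS library. Of all genes tested 9.6% lay below and 6.35% above, and the markers called separate in what follows lay above. The marker counts include genes too low to be tested, which these shares leave out. Of the neutrophil markers 5 of 10 were tested, and of the epithelial markers 7 of 12. Neutrophil markers summed to 66.6 to 110 FPKM in DSS and 3.06 to 8.02 in controls, with 8 of 10 higher in DSS and 3 separate, and 7 of the 10 were at 0 in some library, S100a8 and Ly6g among them. Macrophage markers summed to 39.6 to 57.9 FPKM in DSS and 30.9 to 36.8 in controls (8 of 10 higher, 1 separate). Colon epithelial markers summed to 50.6 to 60.1 FPKM in DSS and 19.3 to 37.1 in controls (11 of 12 higher, 4 separate). B and plasma cell markers summed to 49.7 to 291 FPKM in DSS and 26.6 to 39.1 in controls (6 of 6 higher, 3 separate). The sums of T cell, ILC3, ILC1 and NK, and stromal markers overlapped, with 4 of 8, 3 of 6, 6 of 7 and 4 of 8 higher in DSS. Ribosomal protein genes took 20.4% of all FPKM in DSS replicate 1 and 11.7% to 15.6% in the other 5 libraries. The number of genes above 1 FPKM was 17579 in DSS replicate 3 and 14326 in control replicate 3, against 10120 to 10785 in the other 4. The same libraries had the highest mean over 1096 olfactory receptor genes, at 0.964 FPKM in DSS replicate 3 and 0.582 FPKM in control replicate 3, with 0.034 to 0.183 FPKM in the rest. The part of these differences in the glycolysis and HIF values was not tested.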

How the data were processed

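RNA from sorted colonic ILC2s was measured in 3 DSS and 3 control libraries (SMART-Seq HT cDNA and Nextera XT libraries, per the labels' protocols). The authors deposited FPKM values per gene symbol. Per the submitters' processing notes the tools were cutadapt 1.9 and HISAT2 2.2.1 with build mm10. How fragments were counted, and on which annotation, is not given in the sources used here. Whole fragments (tolerance 0.001) were recovered from the steps of the FPKM values for 22701 of 22701 genes above 0. These gave the depths and a limma voom alternative.

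Values were compared on the scale log2(FPKM + 1), keeping genes with a mean of 1 FPKM or more, by a two-sided moderated test with an intensity trend in limma 3.58.1 under R 4.3.3. Benjamini-Hochberg adjusted p-values under 0.05 passed. This scale understates changes of weakly expressed genes. The test was also run on simulated fragments. These had the same dispersion for all genes and no outlying library, so that run does not show how the test performs on these libraries. Isozyme ratios were tested with exact permutation tests over libraries. All 37 members were named, and of each wider list the 3 genes with the smallest p. The members and lists were chosen with earlier results of these data known.

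Same-numbered DSS and control libraries deviated together from their group means (r = 0.189, 0.262 and 0.545). With each r over 0.1, the replicate block alternative takes them as paired by number. This comes from the data, not the labels, and does not establish a pairing. Libraries of unlike number passed 0.1 as well: DSS replicate 2 with control replicate 1 (0.345) and DSS replicate 1 with control replicate 2 (0.101). The main test has no block. Coordinates and overlaps are from GENCODE M21 (GRCm38, the same as mm10), promoters from RefSeq (GRCm38.p6). The libraries do not mark strand. Of the members, 13 share exonic bases with another gene, Bnip3 the largest part (22.3%), and their fragments cannot be told apart there. Figures were drawn with matplotlib 3.10.9 and Python 3.11.15.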

Additional observations from a re-analysis of the deposited data

How the results depend on the processing

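Alternatives were pseudocounts of 0.1 and 5, no filter and a mean of at least 5 FPKM, 3 scalings, no trend, robust estimation, voom, the replicate block and leaving out libraries. With the replicate block, 22 genes passed in place of 27 and 0 members, and the block changed the call of no member. A block cannot move the mean differences of the 4 isozyme ratios, which stay by construction at −0.80, −0.47, −0.83 and 0.49 for Hk2 to Hk1, Slc2a1 to Slc2a3, Ldha to Ldhb and Slc16a3 to Slc16a1. Of the 37 members, 24 kept their sign in all 19 alternatives.

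The count of all genes called was 14 at an equal total, 9 with median-of-ratios, 4 with no trend, 8 without both replicates 3, 302 without both replicates 1, and 5 to 435 with 1 library left out. Called members numbered 0 to 3 (glycolysis) and 0 to 4 (HIF) with 1 library left out, and 1 and 3 without both replicates 1. Members below and above all controls numbered 8 and 2 with median-of-ratios, 12 and 1 at an equal total, and 7, 9 and 4 lay above without DSS replicate 1, both replicates 1 and both replicates 3.

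With 1 library left out, log2 changes that took both signs ran from −0.46 to 0.19 for Slc2a1, −0.51 to 0.098 for Hk1, −0.31 to 0.047 for Gpi1, −0.48 to 0.013 for Pfkp, −0.20 to 0.43 for Pfkl, −0.16 to 0.43 for Pfkm, −0.14 to 0.035 for Aldoa, −0.45 to 0.21 for Aldoc, −0.30 to 0.60 for Pfkfb4, −0.27 to 0.44 for Slc16a3, −0.27 to 0.21 for Vhl, −0.068 to 0.58 for Bnip3 and −0.14 to 0.32 for Kdm3a. Without both replicates 1 they were 0.27 (Slc2a1), 0.078 (Hk1), 0.080 (Gpi1), 0.067 (Pfkp) and 0.22 (Vhl), and without both replicates 3, 0.011 (Aldoa), −0.076 (Pfkfb4), −0.34 (Slc16a3) and −0.068 (Kdm3a). Slc16a3 was −0.029 at a pseudocount of 0.1, −0.067 after quantile normalization and −0.13 with voom. The cause of these shifts was not tested. Of the 37 members, Pfkfb4, Aldoc, Slc16a3 and Bnip3 had the fewest fragments in any 1 library, at 36, 40, 52 and 75, and of the other genes named, Hif3a had 17 and Pgam2 22.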
